A study of Homo sapiens with 30 samples.

Results

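The 42 genes described here are the ATF4 amino-acid stress genes: ATF4, other transcription factors of the same programme, and genes for amino acid synthesis, amino acid uptake and tRNA charging that ATF4 is known to induce. They were chosen by name, from knowledge of the programme, with earlier results of these data known. All 42 were found in the count table of 33538 genes, each under a single Ensembl gene identifier, and all 42 were among the 16713 genes with enough counts to be tested. RNA was measured in A673, CHLA10 and TC32, 3 lines grown from Ewing sarcomas that carry the EWS::FLI1 fusion, each cultured with 5 nM BMS-986158 or with DMSO vehicle. This compound blocks the bromodomains through which BET proteins bind acetylated chromatin. The 3-day groups were A673 BMS-986158, A673 vehicle, CHLA10 BMS-986158, CHLA10 vehicle, TC32 BMS-986158 and TC32 vehicle. The 20-day groups were A673 BMS-986158, A673 vehicle, CHLA10 BMS-986158 and CHLA10 vehicle, and the labels call cells kept in the drug for that time persisters. Each of the 10 groups held 3 libraries. A673 and TC32 were grown in RPMI1640 and CHLA10 in IMDM with more serum and an insulin supplement, so in comparisons with CHLA10 line and medium cannot be told apart. The labels do not give how long the vehicle cultures of the 20-day groups ran, and do not say whether libraries came from separate cultures, so p-values measure only the spread between these libraries.

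ATF4 is a transcription factor at the centre of the integrated stress response. Kinases that sense missing amino acids, misfolded protein in the endoplasmic reticulum, haem shortage or viral RNA phosphorylate the initiation factor eIF2, which lowers translation in general but raises translation of the ATF4 message. ATF4 then pairs with other basic leucine zipper proteins and induces enzymes, transporters and tRNA synthetases that restore the supply of charged tRNA, together with factors such as TRIB3 and CHAC1 that feed back on the response or favour cell death. Cancer cells, Ewing sarcoma among them, use serine and glycine synthesis genes of this programme for growth.

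ATF4 pairs with C/EBP proteins on a composite element whose usual core is TGATGCAA, and these letters were searched on both strands in RefSeq promoter windows of GRCh38.p14, which run across each annotated gene start. Windows existed for 35 of the 42 members. The core was in the windows of 9 of these 35 members (CEBPG, CHAC1, SLC1A4, SLC1A5, AARS1, NARS1, CARS1, MARS1 and IARS1), and in those of 1.08% of all 27305 genes with a window (0.866% of windows). The looser TGATGNAA, which takes in every TGATGCAA, was in the windows of 14 of the 35 members and of 4.46% of all genes (3.62% of windows). Stretches around the match are shown because these are the letters through which the members are thought to be induced together. The members SLC1A4, IARS1, CARS1, MARS1, CHAC1 and AARS1, hold the core on the strand opposite to the gene, where it reads TTGCATCA, and CEBPG and SLC1A5 hold it on the gene's own strand. ASNS holds the looser form only, also on its own strand. Capitals mark the match, and each line runs 5′ to 3′ on the strand of the gene.
CHAC1: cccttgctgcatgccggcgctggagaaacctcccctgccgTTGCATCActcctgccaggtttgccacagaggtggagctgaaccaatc
AARS1: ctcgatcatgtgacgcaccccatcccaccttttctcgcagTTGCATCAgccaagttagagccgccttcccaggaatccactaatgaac
CEBPG: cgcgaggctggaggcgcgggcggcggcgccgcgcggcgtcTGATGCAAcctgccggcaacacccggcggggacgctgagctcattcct
SLC1A5: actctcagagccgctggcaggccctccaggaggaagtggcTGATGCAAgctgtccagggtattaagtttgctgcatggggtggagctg
SLC1A4: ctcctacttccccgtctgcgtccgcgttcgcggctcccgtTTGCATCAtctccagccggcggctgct
CARS1: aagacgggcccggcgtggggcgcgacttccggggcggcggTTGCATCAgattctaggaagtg
MARS1: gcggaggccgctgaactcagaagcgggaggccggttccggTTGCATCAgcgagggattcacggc
IARS1: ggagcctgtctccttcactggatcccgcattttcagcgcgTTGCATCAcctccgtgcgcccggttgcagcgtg
ASNS: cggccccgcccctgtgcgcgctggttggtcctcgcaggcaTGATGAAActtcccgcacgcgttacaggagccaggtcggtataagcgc

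These stretches lie at chr15:40953222-40953309 (CHAC1, plus strand), chr16:70289646-70289733 (AARS1, minus), chr19:33374031-33374118 (CEBPG, plus), chr19:46784864-46784951 (SLC1A5, minus), chr2:64989352-64989418 (SLC1A4, plus) and chr11:3057404-3057465 (CARS1, minus). Those of MARS1 at chr12:57488024-57488087 (plus), IARS1 at chr9:92293678-92293750 (minus) and ASNS at chr7:97872429-97872516 (minus) complete the set. In ASNS, asparagine synthetase, the match begins at position -68 from its start, the base before the start being -1. SLC1A4, SLC1A5, CARS1, MARS1, IARS1, AARS1 and CEBPG follow below with changes between -1.51 and -0.45 log2 units in A673 after 3 days, and CHAC1 with -5.23. A match is a description of the letters and not evidence of binding.

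Library totals ran between 16.1 M and 48.9 M counts assigned to genes. Values are CPM, counts divided by library size and put on a common scale, with library sizes adjusted by the trimmed mean of M-values. Means are given ± SD over 3 libraries and log2 changes ± SE. All adjusted p-values are from edgeR's quasi-likelihood test, adjusted by the Benjamini-Hochberg method over all 16713 genes, and a gene is said to be higher, lower, risen or fallen where this p was under 0.05. The fit takes a single spread per gene over all groups. The scatter between the A673 3-day vehicle libraries therefore enters the SE and p of every line, and a member that did not pass is not shown to be unchanged. Of 9 Ewing sarcoma marker genes, 8 exceeded 1 CPM in all 30 libraries, the exception being NKX2-2, whose lowest value of 0.0397 CPM was in CHLA10. No endothelial or epithelial marker and 1 of 6 haematopoietic markers did so, and CD3E was at 0 throughout. In at least 1 library, however, 2 endothelial, 3 epithelial and 2 haematopoietic markers exceeded 1 CPM. The epithelial marker KRT18 averaged 105 and 127 CPM in treated and vehicle A673 cells at 3 days, and 424 ± 273 and 123 ± 17.5 CPM at 20 days. KRT8 averaged 4.89 to 19.5 CPM in the A673 groups. In bulk RNA, fewer cells of a type and less RNA per cell cannot be told apart.

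Compared per kilobase of exon, the vehicle cells of each line had ATF4 itself and SLC7A5, the large neutral amino acid transporter, among the 3 highest members. In A673 vehicle cells after 3 days PSAT1, at 242 CPM per kilobase, lay between them, and after 20 days CEBPB did so at 137, with ATF4 at 171 and SLC7A5 at 132. After 3 days, ATF4 stood at 280 CPM per kilobase in A673 vehicle cells, 154 in CHLA10 vehicle cells and 228 in TC32 vehicle cells. The A673 means at 3 days rest largely on vehicle replicates 1 and 2. In replicates 1, 2 and 3 ATF4 had 939, 795 and 377 CPM, and PSAT1 had 803, 617 and 171 CPM. The CHLA10 vehicle libraries had 379 to 394 CPM of ATF4 and those of TC32 548 to 593 CPM. The order of the lines and the place of PSAT1 therefore do not hold for A673 replicate 3. SLC7A5 was above ATF4 in CHLA10 vehicle cells at 454 CPM per kilobase, and below it in TC32 vehicle cells at 134 and in A673 vehicle cells at 172. NUPR1, a small stress-induced chromatin protein, was at 0.226 CPM per kilobase in A673 vehicle cells and 0.173 in TC32 vehicle cells. The heat map of all members shows the libraries one by one.

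**Figure D1:**
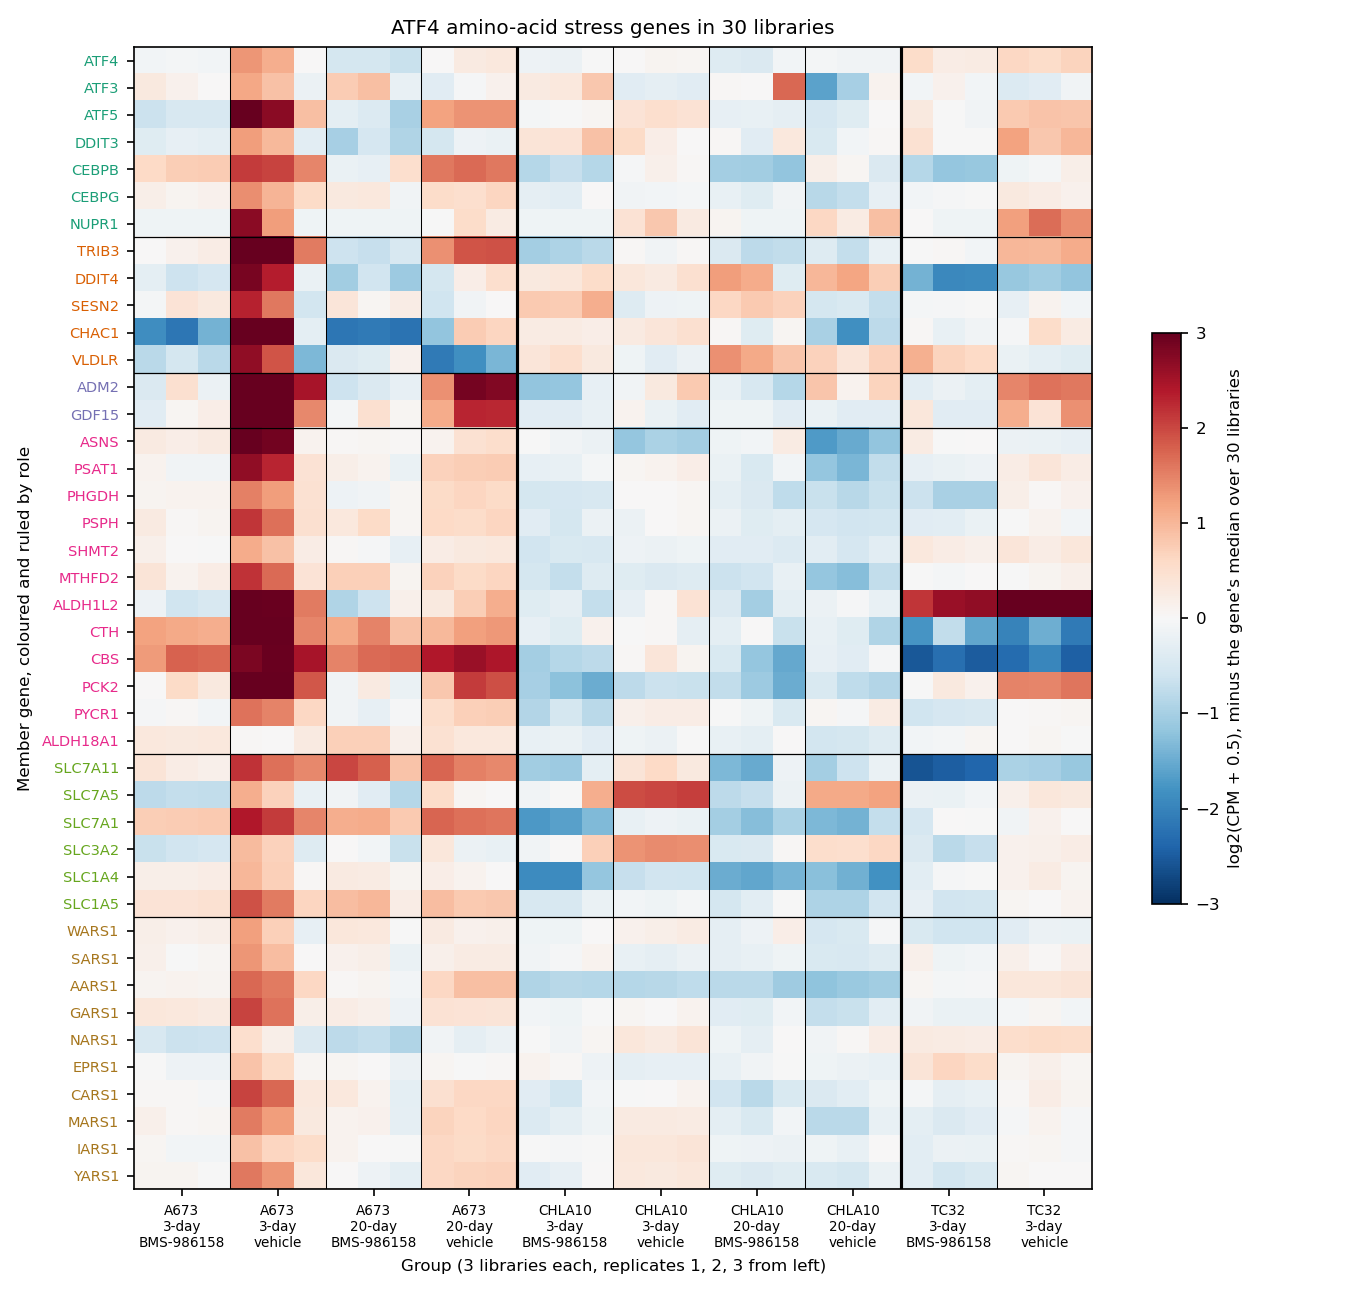
The 42 members (rows, ordered and coloured by role) in the 30 libraries (columns, grouped), as log2(CPM + 0.5) minus the gene's median over the 30 libraries, with colours ending at 3 units either way. A673 3-day vehicle replicates 1 and 2 form the darkest red columns, and replicate 3 of the same group is close to the 20-day vehicle libraries.

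The vehicle libraries of A673 at 3 days were far apart for these genes, and are therefore given one by one. The summed level of the 42 members was 4816, 4707 and 4707 CPM in the 3 BMS-986158 libraries, and 15058, 11888 and 5886 CPM in vehicle replicates 1, 2 and 3. The A673 20-day vehicle libraries, at 6900, 6770 and 6782 CPM, lay near replicate 3 and far below replicates 1 and 2. The middle member differed between the highest and the lowest of the 3-day vehicle libraries by 1.35 log2 units, against 0.35 units for the middle gene of all tested.

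Replicate 1 was the highest of the group for 40 of 42 members (31.9% of all genes tested) and replicate 3 the lowest for 41 (45.1% of all genes tested). Replicate 1 lay above replicate 2, and replicate 2 above replicate 3, for 40 of 42 members and for 23.6% of all genes tested. Of the 41 members with counts in replicate 3, 30 were at least 2-fold and 12 at least 4-fold higher in replicate 1 than in replicate 3, among them GDF15 (35.4-fold), VLDLR (20.6-fold), CHAC1 (17.9-fold) and ASNS (9.38-fold). ALDH18A1, a proline synthesis enzyme, was 0.854-fold. Replicate 3 was also 1 of the 4 libraries farthest from the rest of their group over all genes. The mitochondrial share of counts was 2.83 to 4.82% in the treated libraries and 5.31, 5.53 and 2.0% in vehicle replicates 1, 2 and 3. Summed epithelial markers were at 108 to 112 CPM in the treated libraries and at 168, 162 and 115 CPM in the vehicle libraries, and summed haematopoietic markers at 5.23 to 5.62 against 11.7, 11.0 and 3.81 CPM. The part of these in the spread of the members was not tested.

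**Figure D2:**
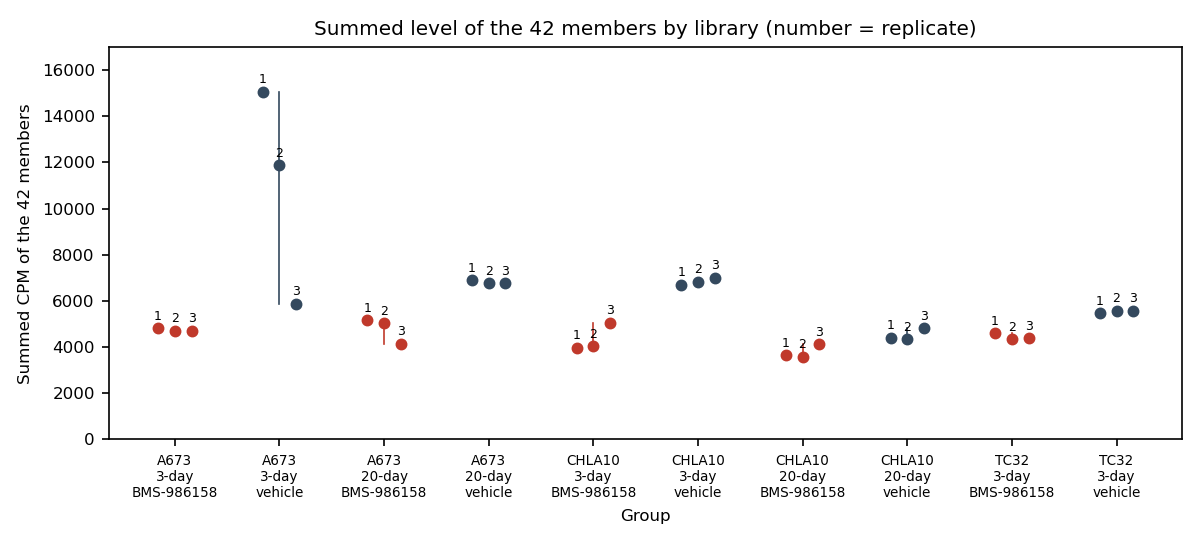
Summed CPM of the 42 members in each library (points, numbered by replicate, with the range as a line) for the 10 groups. The 3-day A673 vehicle group spans 5886 to 15058 CPM, while its BMS-986158 libraries stay between 4707 and 4816 CPM.

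Set against each vehicle library alone, the A673 cells treated for 3 days had a lower median member in every case, but by very different amounts. The median member change was -1.66 log2 units against replicate 1, -1.39 against replicate 2 and -0.30 against replicate 3. All 3 treated libraries lay below the vehicle library for 41, 41 and 31 of the 42 members, which was true of 40.3, 40.7 and 39.7% of all genes tested. The treated mean was at least 2-fold lower for 38, 32 and 8 members (14.5, 15.2 and 11.7% of all genes tested).

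In fits that kept a single A673 3-day vehicle library, whose spread is then assumed to be like that of other groups, 40 members were lower with replicate 1 and 39 with replicate 2. With replicate 3, 15 were lower (11.9% of all genes tested) and 1, SESN2, was higher at 0.81 ± 0.23 (adjusted p = 0.0104). Genes called over all 16713 were 23.9, 24.4 and 22.8% in these fits. The 15 were 2 of 7 transcription factor genes (ATF5 and CEBPB), TRIB3 and CHAC1 among 5 effectors, both secreted factors (ADM2 and GDF15), 5 of 12 synthesis enzymes (PCK2, ALDH1L2, PYCR1, CBS and PSAT1), 2 of 6 transporters (SLC7A11 and SLC7A1), and 2 of 10 tRNA synthetases (AARS1 and IARS1). Against replicate 3 alone, ATF5 changed by -1.44 ± 0.17 (adjusted p = 1.88e-06), ADM2 by -2.76 ± 0.48 (adjusted p = 0.000182), ALDH1L2 by -2.31 ± 0.38 (adjusted p = 0.000114), TRIB3 by -1.46 ± 0.18 (adjusted p = 2.72e-06) and PCK2 by -1.58 ± 0.32 (adjusted p = 0.000756).

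**Figure D3:**
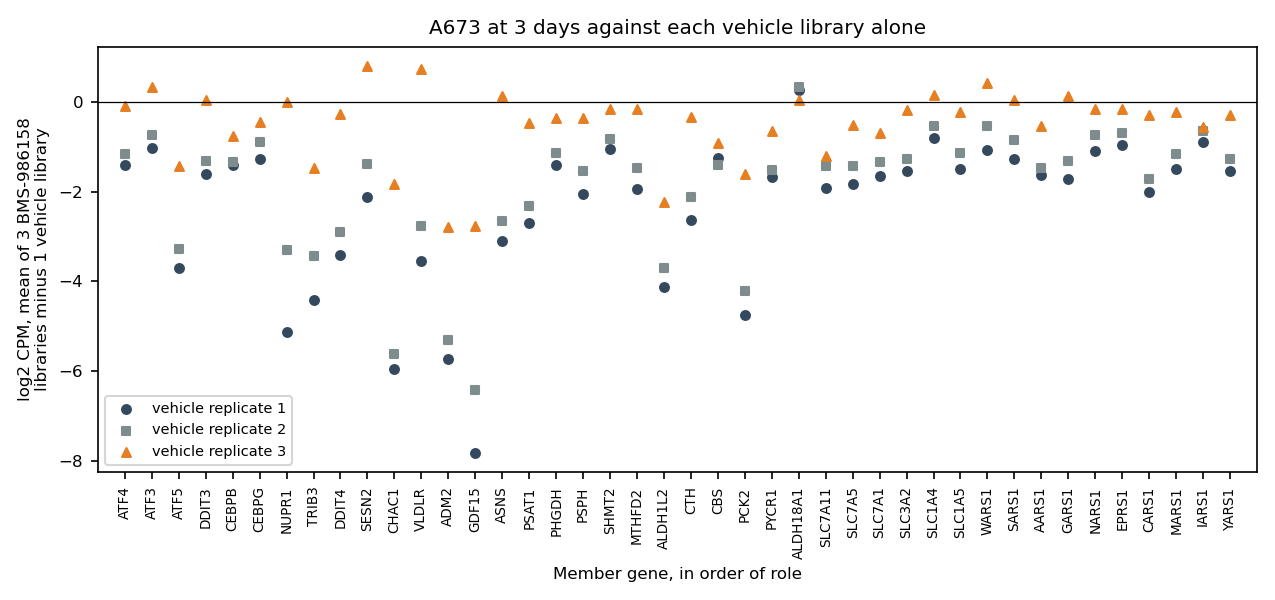
Each member's log2 CPM in A673 at 3 days, as the mean of the 3 BMS-986158 libraries minus 1 vehicle library, with a marker for each vehicle replicate. The points for replicates 1 and 2 lie together and mostly far below 0, and those for replicate 3 are near 0 for most members, with ADM2, GDF15, ALDH1L2, CHAC1, PCK2, TRIB3 and ATF5 among those that remain below -1.

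With all 3 vehicle libraries as the group, 39 of 42 members fell in A673 after 3 days of BMS-986158 (33.7% of all genes tested were called in this comparison, 18.4% lower and 15.3% higher), with a median change of -1.28 over members and -0.02 over all genes tested. The members that did not pass were ATF3 (-0.59 ± 0.42), WARS1 (-0.52 ± 0.20) and ALDH18A1 (0.21 ± 0.11). The treated and vehicle libraries did not overlap for 31 members that were lower (23.7% of all genes tested) and for ALDH18A1, which was higher (22.9%). Changes given below for this comparison rest on a vehicle mean that replicates 1 and 2 set.

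Of the transcription factors, ATF4 had 353, 358 and 354 CPM in the treated libraries, against 939, 795 and 377 CPM in vehicle replicates 1, 2 and 3. The groups did not overlap, but replicate 3 lay just above the treated libraries, and the change was -0.99 ± 0.18 (adjusted p = 0.000127). ATF5, which ATF4 and DDIT3 induce, had 42.7, 48.3 and 47.7 CPM in treated cells, against 597, 445 and 126 CPM in vehicle cells. Every treated library was below every vehicle library, with a change of -3.07 ± 0.32 (adjusted p = 3.01e-07). ATF5 shares 626 exon bases with NUP62 on the opposite strand, and whether counting used strand is not given in the sources used here. NUPR1 had no counts in any treated library and 52, 19 and 0 counts in the vehicle libraries, so that it was at least 32.3-fold lower, taking 3 counts over the group as the floor (adjusted p = 0.000814). CEBPB and CEBPG, partners of ATF4, fell by 1.19 and 0.91 on the log2 scale. DDIT3 (CHOP), the factor tied to stress-induced death, fell by 1.12, with an overlap between the treated range of 5.51 to 6.1 CPM and vehicle replicate 3 at 5.7 CPM. DDIT3 shares 355 exon bases with the member MARS1 on the other strand.

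All 5 stress effectors fell. CHAC1, which degrades glutathione, had 1.08, 0.797 and 1.68 CPM in treated libraries, against 75.6, 59.7 and 4.22 CPM in vehicle libraries. The treated libraries were lowest throughout, by -5.23 ± 0.70 (adjusted p = 5.62e-06). TRIB3, a pseudokinase that restrains ATF4, had 17.0, 18.4 and 19.8 CPM in treated cells, against 393, 200 and 51.0 CPM in vehicle cells, again with no overlap (-3.53 ± 0.40, adjusted p = 8.65e-07). DDIT4 and SESN2, inhibitors of mTORC1 signalling, changed by -2.70 and -1.30, and VLDLR, a lipoprotein receptor gene, by -2.69. For SESN2 and VLDLR the direction depended on the vehicle library: SESN2 had 16.8, 23.5 and 21.7 CPM in treated cells, against 88.8, 53.3 and 11.8 CPM in vehicle cells. VLDLR had 2.67, 3.39 and 2.69 CPM in treated cells, against 35.0, 20.2 and 1.7 CPM in vehicle cells. In both, replicate 3 was below every treated library while replicates 1 and 2 were above. SESN2 no longer passed without vehicle replicate 1 (-0.65, adjusted p = 0.134).

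Both secreted factors fell. GDF15, a stress hormone of the TGF-beta family, had 0.0, 0.159 and 0.223 CPM (0, 4 and 11 counts) in treated libraries, against 42.8, 16.2 and 1.21 CPM (726, 389 and 32 counts) in vehicle libraries. Vehicle replicate 3 was the nearest to the treated libraries, and the fitted change was -6.97 ± 0.99 (adjusted p = 9.13e-06). ADM2, a peptide of the calcitonin family, had 1.14, 2.59 and 1.46 CPM in treated cells, against 90.4, 68.1 and 11.8 CPM in vehicle cells. No treated library reached a vehicle library, and the change was -5.03 ± 0.57 (adjusted p = 4.79e-07).

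Of 12 amino acid and one-carbon synthesis enzymes, 11 fell, with a median of -1.42. PCK2, the mitochondrial phosphoenolpyruvate carboxykinase, had 7.96, 12.0 and 9.74 CPM in treated libraries, against 262, 183 and 29.7 CPM in vehicle libraries. ALDH1L2, the mitochondrial enzyme that turns formyl-tetrahydrofolate into carbon dioxide and NADPH, had 1.76, 1.16 and 1.32 CPM in treated cells, against 25.6, 19.1 and 6.9 CPM in vehicle cells. Neither gene's groups overlapped, and the changes were -3.99 ± 0.49 (adjusted p = 2.02e-06) for PCK2 and -3.62 ± 0.38 (adjusted p = 7.2e-08) for ALDH1L2. The serine pathway enzymes PHGDH, PSAT1 and PSPH changed by -1.03, -2.10 and -1.47, the folate cycle enzymes SHMT2 and MTHFD2 by -0.73 and -1.36, and the proline synthesis enzyme PYCR1 by -1.34. ASNS had 90.6, 87.2 and 90.7 CPM in treated cells, against 767, 565 and 81.8 CPM in vehicle cells. Its groups overlapped, vehicle replicate 3 being below all treated libraries, although the fitted change was -2.40 ± 0.41 (adjusted p = 0.000136). CTH and CBS make cysteine from methionine, and changed by -1.98 and -1.19. CBS has a near-identical annotated copy, CBSL, which changed by -1.03 ± 0.17 (adjusted p = 4.83e-05), so that the level of CBS is uncertain.

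All 6 amino acid transporters fell. SLC7A11, the cystine importer, had 39.2, 34.5 and 32.9 CPM in treated libraries, against 134, 94.7 and 81.5 CPM in vehicle libraries. Here vehicle replicate 3 remained far from the treated cells, and the change was -1.54 ± 0.31 (adjusted p = 0.000509). SLC7A5 had 306, 325 and 320 CPM in treated cells, against 1138, 856 and 453 CPM in vehicle cells, with no overlap (-1.36 ± 0.28, adjusted p = 0.000685). SLC3A2, its heavy chain, fell by 1.10 on the log2 scale, the arginine importer SLC7A1 by 1.28 and the glutamine importer SLC1A5 by 1.04. SLC1A4, which carries alanine and serine, was the weakest at -0.45 ± 0.18 (adjusted p = 0.0491) and did not pass without vehicle replicate 1 (-0.23, adjusted p = 0.35), without vehicle replicate 2 or without any 1 of the treated libraries. SLC7A5, PSPH and PSAT1 have pseudogene copies whose reads the counting may have split or dropped.

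Of 10 cytosolic tRNA synthetases, which load amino acids onto tRNA, 9 fell, with a median of -0.92. CARS1, for cysteine, had 48.7, 48.7 and 46.4 CPM in treated libraries, against 194, 157 and 59.2 CPM in vehicle libraries. AARS1, for alanine, had 261, 264 and 263 CPM in treated cells, against 808, 725 and 379 CPM in vehicle cells. In both genes all vehicle libraries were above all treated libraries, and the changes were -1.51 ± 0.24 (adjusted p = 3.7e-05) for CARS1 and -1.28 ± 0.15 (adjusted p = 3.96e-07) for AARS1. IARS1, for isoleucine, differed least between the vehicle libraries, with 1.26-fold more in replicate 1 than in replicate 3, and fell by 0.72 ± 0.08 (adjusted p = 1.35e-07). GARS1 and SARS1, for glycine and serine, were at -1.16 and -0.79 with groups that overlapped, while YARS1 (-1.13), MARS1 (-1.05), NARS1 (-0.72) and EPRS1 (-0.64) had every treated library below every vehicle library.

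**Figure D4:**
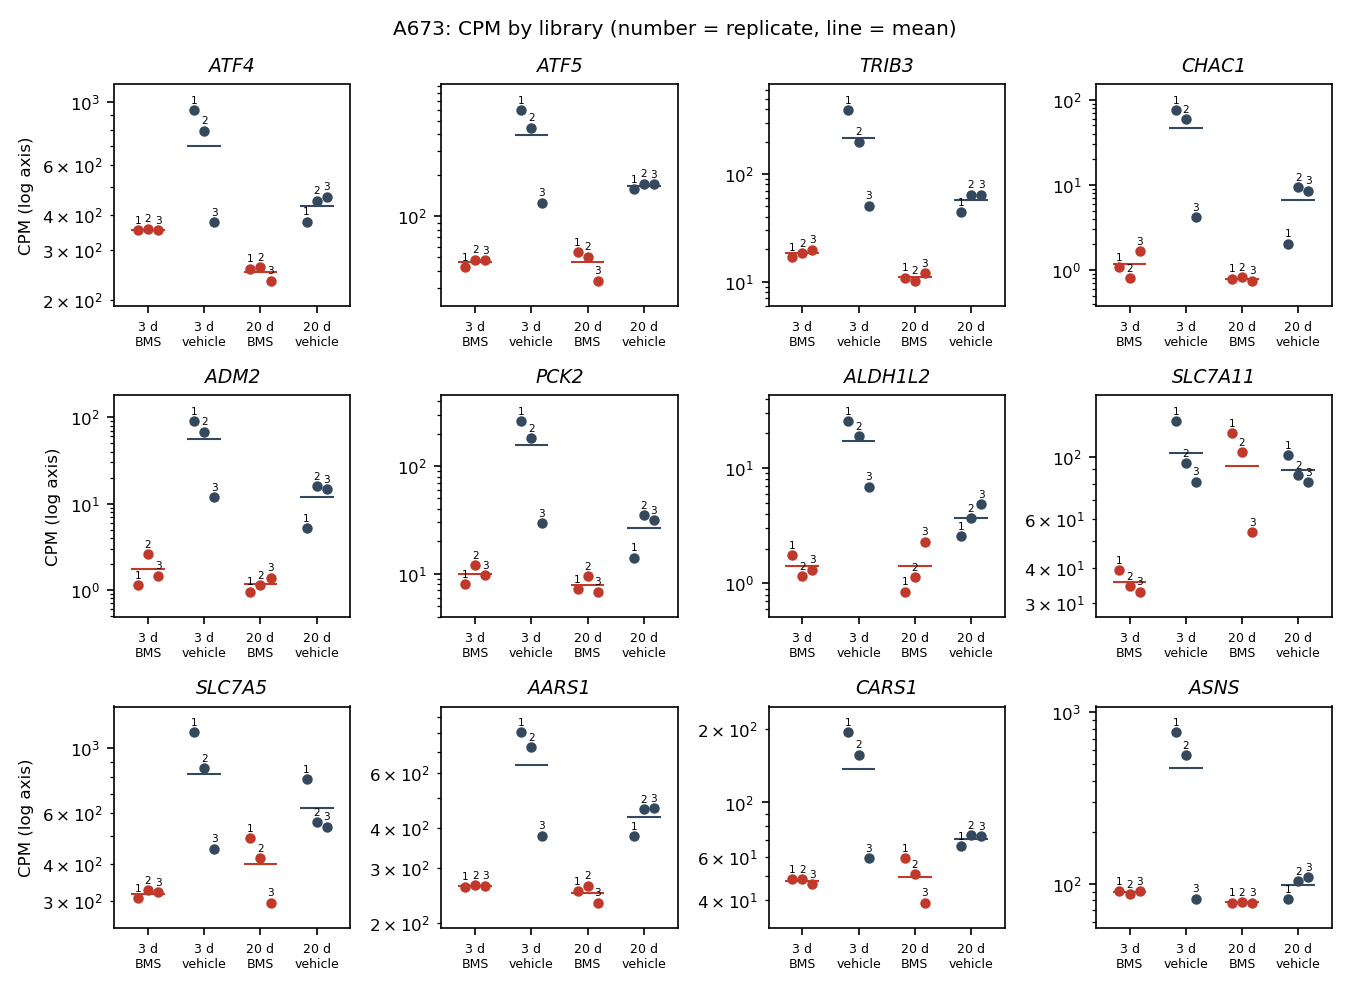
CPM of 12 members in each A673 library on log axes, at 3 days (left pair) and 20 days (right pair), BMS-986158 in red and vehicle in dark blue, with replicate numbers and group means as lines. The 3-day vehicle libraries spread widely, while the 20-day vehicle libraries cluster more tightly. The 20-day vehicle libraries stay above the 20-day treated libraries for every gene drawn except SLC7A11.

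The 20-day A673 groups give the same question an answer from other libraries. After 20 days 20 members were lower and 1 higher in BMS-986158 than in vehicle (19.9 and 19.7% of all genes tested), with a median of -0.59 over members and 0.00 over all genes. Groups did not overlap for 27 members that were lower (24.2% of all genes tested) and 2 that were higher (22.2%). All 20 that fell were among the 39 that fell at 3 days. Of the 3329 genes lower at 20 days over all tested, 1977 were also lower at 3 days (11.8% of all 16713 genes). Because nearly every member had fallen at 3 days, the overlap of the members was close to fixed in advance and says little about agreement between the times. Of the 15 members lower against 3-day vehicle replicate 3 alone, 13 (86.7%) were among the 20 that fell at 20 days, and these 13 were 65% of the 20. Over all genes tested, 1339 of the 1981 lower against replicate 3 (67.6%) were among the 3329 lower at 20 days, and were 40.2% of those. The exceptions were PSAT1 and SLC7A11. The 2 comparisons share no library in their means. Calls against replicate 3 come from the fit that kept it as the only A673 3-day vehicle library, and the 20-day calls from the main fit. Each fit takes its spread over all groups, most of them the same, so the calls are neither independent nor made with the same spread.

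ATF4 had 258, 262 and 234 CPM in 20-day treated libraries, against 379, 449 and 464 CPM in 20-day vehicle libraries. ATF5 had 54.9, 50.6 and 33.8 CPM in treated cells, against 157, 173 and 172 CPM in vehicle cells. Neither overlapped, with changes of -0.78 ± 0.18 (adjusted p = 0.001) and -1.85 ± 0.31 (adjusted p = 5.63e-05). CEBPG fell by 0.39, a call that was lost without treated replicate 3 (adjusted p = 0.172) and without vehicle replicate 1 or replicate 3. CEBPB fell by 1.57 ± 0.17 (adjusted p = 5.78e-08), with 90.5 ± 28.5 CPM in treated and 268 ± 11.6 CPM in vehicle cells. NUPR1 had no counts in treated libraries and 1, 8 and 3 counts in vehicle libraries, and did not pass (adjusted p = 0.103).

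CHAC1 had 0.794, 0.826 and 0.75 CPM in 20-day treated libraries, against 2.04, 9.39 and 8.57 CPM in vehicle libraries. TRIB3 had 10.9, 10.2 and 12.0 CPM in treated cells, against 44.6, 64.3 and 64.5 CPM in vehicle cells. Vehicle replicate 1 was the lowest of its group for both, yet above all treated libraries, and the changes were -3.06 ± 0.74 (adjusted p = 0.00188) for CHAC1 and -2.39 ± 0.40 (adjusted p = 5.15e-05) for TRIB3. ADM2 had 0.953, 1.14 and 1.39 CPM in treated cells, against 5.23, 15.9 and 14.8 CPM in vehicle cells (-3.35 ± 0.58, adjusted p = 5.98e-05). GDF15 had 0.106, 0.381 and 0.161 CPM in treated cells, against 0.86, 2.57 and 2.52 CPM in vehicle cells (-3.21 ± 1.02, adjusted p = 0.0145), and did not pass without treated replicate 1 (adjusted p = 0.0645) or treated replicate 3 (adjusted p = 0.0502). Both secreted factors thus had every treated library below every vehicle library. VLDLR was the 1 member that rose, with 3.6, 3.81 and 5.57 CPM in treated cells, against 0.788, 1.06 and 1.65 CPM in vehicle cells (1.91 ± 0.57, adjusted p = 0.00972). It was not called when A673 libraries alone were fitted, where 15 members were lower and 34.7% of all genes tested were called. In CHLA10 at both times and in TC32, every treated library was also above every vehicle library for VLDLR, without passing the test.

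Among the enzymes, 6 of 12 fell at 20 days. PCK2 had 7.2, 9.53 and 6.8 CPM in treated libraries, against 14.1, 35.0 and 31.5 CPM in vehicle libraries (-1.78 ± 0.47, adjusted p = 0.0042). ALDH1L2 had 0.847, 1.14 and 2.3 CPM in treated cells, against 2.58, 3.71 and 4.89 CPM in vehicle cells (-1.36 ± 0.39, adjusted p = 0.00654, and 0.0527 without treated replicate 1). PHGDH, PYCR1, SHMT2 and CBS were the others, at -0.66, -0.79, -0.36 and -0.83, SHMT2 without passing when treated replicate 3 was left out (adjusted p = 0.0864), or vehicle replicate 2 or replicate 3. ASNS, at 77.8 ± 0.36 CPM in treated and 98.1 ± 14.8 CPM in vehicle cells, did not pass (-0.33 ± 0.40, adjusted p = 0.545).

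Of the transporters only SLC7A1 fell (-0.67 ± 0.18, adjusted p = 0.00393). SLC7A11 had 121, 104 and 53.6 CPM in treated libraries, against 101, 86.1 and 80.9 CPM in vehicle libraries. SLC7A5 had 492, 420 and 295 CPM in treated cells, against 783, 557 and 539 CPM in vehicle cells. The groups overlapped for SLC7A11 and not for SLC7A5, and neither passed the test (0.05 ± 0.30, adjusted p = 0.914, and -0.64 ± 0.28, adjusted p = 0.0731). Treated replicate 3, which stood farthest from its group over all genes, was the lowest of the treated libraries for 30 members (39.3% of all genes tested). Of the synthetases, 5 fell, AARS1 among them, with 252, 263 and 232 CPM in treated cells, against 378, 461 and 463 CPM in vehicle cells (-0.80 ± 0.15, adjusted p = 0.00011). CARS1 had 59.2, 51.0 and 38.9 CPM in treated cells, against 66.5, 73.6 and 72.6 CPM in vehicle cells, without overlap but also without passing (-0.51 ± 0.24, adjusted p = 0.0924). NARS1, MARS1, IARS1 and YARS1 were at -0.62, -0.64, -0.57 and -0.81.

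The A673 drug effect at 20 days was less negative than that at 3 days for 12 members (7.26% of all genes tested were called, 4.33% more positive and 2.93% more negative at 20 days), led by VLDLR (difference 4.61 ± 0.77, adjusted p = 0.000734), ALDH1L2 (2.26 ± 0.54, adjusted p = 0.00997) and PCK2 (2.21 ± 0.64, adjusted p = 0.0386). The difference rested on the 3-day vehicle libraries: 33 members passed with replicate 1 alone and 20 with replicate 2 alone, all more positive at 20 days, while with replicate 3 alone 2 passed and both were more negative. The count was 2 without vehicle replicate 1, 5 without vehicle replicate 2 and 33 without vehicle replicate 3. It was 7, 4 and 4 without 3-day treated replicate 1, 2 or 3, 4 and 3 without 20-day treated replicate 1 or 2, and 5, 6 and 5 without 20-day vehicle replicate 1, 2 or 3.

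Between treated cells alone, 3 members differed between 20 and 3 days in A673. SLC7A11 was higher at 20 days (92.8 ± 35.1 CPM at 20 days and 35.5 ± 3.23 CPM at 3 days, change 1.39 ± 0.31, adjusted p = 0.00273; 11.3% of all genes tested were higher). ATF4 (-0.50 ± 0.18, adjusted p = 0.0479) and CEBPB (-0.64 ± 0.17, adjusted p = 0.00826) were lower at 20 days (8.91% of all genes tested). Without 20-day treated replicate 1 or replicate 2 the count was 1.

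Between vehicle cells, 25 members were lower at 20 days than at 3 days in A673 (3.08% of all genes tested were lower and 3.02% higher), the largest called change being VLDLR at -4.03 ± 0.58 (adjusted p = 0.00123). The groups did not overlap for 4 members that were lower (10.5% of all genes tested). All 3 20-day vehicle libraries lay below 3-day vehicle replicate 1 for 41 members (39.5% of all genes tested) and below replicate 2 for 40 (40.7%). Replicate 3 was above all of them for 4 members (27.3%) and below all of them for 21 (29.3%). Without 3-day vehicle replicate 1, without replicate 2 or without 20-day vehicle replicate 1, 2 members passed, and without 3-day vehicle replicate 3, 36 passed.

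In CHLA10 5 of the 6 transporters fell at 3 days. After 3 days 15 members were lower and 1 higher in BMS-986158 (15.7 and 14% of all genes tested), with a median of -0.35. Groups did not overlap for 29 lower members (28.6% of all genes tested) and 6 higher ones (26.4%). The higher ones were ATF3, SESN2, VLDLR, ASNS, SARS1 and EPRS1, of which only SESN2 passed the test. ASNS had 75.0, 70.1 and 66.5 CPM in treated libraries, against 33.5, 38.6 and 36.9 CPM in vehicle libraries. VLDLR had 6.72, 7.4 and 6.29 CPM in treated libraries, against 4.63, 3.9 and 4.47 CPM in vehicle libraries. The median over the 6 transporters was -1.18. SLC7A5 had 491, 524 and 1139 CPM in treated libraries, against 2079, 2144 and 2237 CPM in vehicle libraries. Treated replicate 3 stood well above the other treated libraries but below all vehicle libraries, and the change was -1.58 ± 0.28 (adjusted p = 0.000174). SLC7A11 had 14.2, 13.7 and 24.2 CPM in treated cells, against 39.2, 45.0 and 36.6 CPM in vehicle cells (-1.21 ± 0.32, adjusted p = 0.00527). SLC7A1, SLC3A2 and SLC1A4 were at -1.38, -1.14 and -1.0.

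ATF4 had 339, 333 and 373 CPM in CHLA10 cells treated for 3 days, against 379, 394 and 388 CPM in vehicle cells. ATF5 had 64.1, 66.7 and 70.2 CPM in treated cells, against 90.2, 95.8 and 91.3 CPM in vehicle cells. Neither overlapped, and neither passed (-0.15 ± 0.18, adjusted p = 0.562, and -0.46 ± 0.30, adjusted p = 0.269). NUPR1 had no counts in treated libraries and 4, 9 and 3 counts in vehicle libraries, at least 6.62-fold lower (adjusted p = 0.0364), without passing when any 1 treated library, or vehicle replicate 1 or replicate 2, was left out (adjusted p = 0.0548 to 0.109). TRIB3 had 8.15, 8.69 and 9.41 CPM in treated cells, against 17.4, 15.7 and 17.4 CPM in vehicle cells (-0.95 ± 0.40, adjusted p = 0.0788). CHAC1 had 6.4, 6.33 and 6.16 CPM in treated cells, against 6.45, 6.96 and 7.57 CPM in vehicle cells (-0.15 ± 0.59, adjusted p = 0.884). For TRIB3 and CHAC1 the treated libraries were all below the vehicle libraries without passing the test, whose spread is shared with the A673 3-day vehicle libraries.

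SESN2 was the 1 member that rose, with 30.6, 29.8 and 37.9 CPM in treated cells, against 13.3, 15.6 and 15.9 CPM in vehicle cells (1.14 ± 0.37, adjusted p = 0.0227), though not without treated replicate 3 (adjusted p = 0.0641) or vehicle replicate 1 or replicate 2. ADM2 had 0.477, 0.49 and 1.39 CPM in treated libraries, against 1.58, 2.22 and 3.35 CPM in vehicle libraries (-1.61 ± 0.63, adjusted p = 0.0543), and GDF15 had at most 3 counts in any of the 6 libraries. The enzymes PHGDH, SHMT2, PYCR1 and CBS fell, PYCR1 by 0.95 ± 0.16 (adjusted p = 4.45e-05), while SHMT2 lost its call whichever library was left out (adjusted p = 0.0565 to 0.112). PCK2 had 3.7, 3.03 and 2.47 CPM in treated cells, against 4.34, 4.79 and 4.73 CPM in vehicle cells, and ALDH1L2 had 1.47, 1.6 and 1.04 CPM in treated cells, against 1.64, 2.07 and 2.9 CPM in vehicle cells. Both had all treated libraries lowest, and neither passed (adjusted p = 0.44 and 0.205). Of the synthetases NARS1, MARS1, IARS1 and YARS1 fell, between -0.53 and -0.36. The calls of NARS1 and MARS1 were lost without any 1 of the libraries other than treated replicate 3 (adjusted p = 0.0518 to 0.117), and that of YARS1 without treated replicate 1 or replicate 2 or vehicle replicate 3 (adjusted p = 0.0518 to 0.0895). CARS1 had 37.2, 32.3 and 44.7 CPM in treated cells, against 47.0, 47.8 and 51.1 CPM in vehicle cells (-0.35 ± 0.24, adjusted p = 0.29), and AARS1 had 132, 139 and 135 CPM in treated cells, against 136, 139 and 146 CPM in vehicle cells (-0.05 ± 0.15, adjusted p = 0.838).

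After 20 days in CHLA10, 6 members were higher and 4 lower in BMS-986158 than in vehicle (16.5 and 17.2% of all genes tested, 33.7% called in all), with a median of 0.06. Groups did not overlap for 10 higher members (21% of all genes tested) and 8 lower ones (22.2%). The 6 that rose were ATF3, a factor induced by many stresses, SESN2, ASNS, PSAT1, ALDH18A1 and SLC1A5. ASNS had 68.8, 71.0 and 90.1 CPM in treated libraries, against 22.8, 26.0 and 32.9 CPM in vehicle libraries, without overlap (1.5 ± 0.41, adjusted p = 0.00765). At 3 days its treated CHLA10 libraries were also all above the vehicle libraries, without passing. PSAT1, ALDH18A1 and SLC1A5 then had every treated library below every vehicle library. SESN2 had 27.1, 30.3 and 28.7 CPM in treated cells, against 11.9, 12.7 and 10.5 CPM in vehicle cells (1.29 ± 0.37, adjusted p = 0.00962). ATF3 had 16, 15.6 and 52.6 CPM in treated cells, against 4.83, 7.55 and 16.7 CPM in vehicle cells, where replicate 3 was the highest of each group and the groups overlapped (1.54 ± 0.43, adjusted p = 0.00835). PSAT1 had 109, 91.9 and 118 CPM in treated cells, against 56.2, 48.5 and 75.5 CPM in vehicle cells (0.83 ± 0.30, adjusted p = 0.0365). ALDH18A1 and SLC1A5 were at 0.33 and 0.54. Without treated replicate 3 or without vehicle replicate 1, ATF3, PSAT1, ALDH18A1 and SLC1A5 did not pass (adjusted p = 0.0513 to 0.193). Without vehicle replicate 2 PSAT1, ALDH18A1 and SLC1A5 did not, nor PSAT1 without treated replicate 1, nor SLC1A5 without treated replicate 2.

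The 4 that fell were CEBPB, CBS, SLC7A5 and SLC3A2. SLC7A5 had 310, 331 and 467 CPM in treated libraries, against 1172, 1172 and 1235 CPM in vehicle libraries, far apart (-1.69 ± 0.28, adjusted p = 7.04e-05). SLC3A2 was at -0.82 ± 0.25 (adjusted p = 0.0131, and 0.0525 or 0.0531 without treated replicate 1 or replicate 2) and CEBPB at -1.04 ± 0.17 (adjusted p = 3.29e-05). CBS was at -0.89 ± 0.24 (adjusted p = 0.00475), beside -0.57 ± 0.21 (adjusted p = 0.0365) for CBSL. Without vehicle replicate 1 the count in this comparison was 6, 2 of them higher. Same-numbered libraries of these 2 groups deviated together, and with the replicate number as a block 7 members were higher and 6 lower.

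ATF4 had 288, 279 and 353 CPM in CHLA10 cells treated for 20 days, against 362, 350 and 351 CPM in vehicle cells. ATF5 had 56.6, 57.1 and 55.9 CPM in treated cells, against 47.4, 52.1 and 67.8 CPM in vehicle cells. Both groups overlapped, and neither gene passed (adjusted p = 0.396 and 0.973). NUPR1 had 2, 0 and 0 counts in treated libraries and 7, 3 and 9 counts in vehicle libraries (adjusted p = 0.0731, and 0.0301 with the block). CHAC1 had 5.41, 4.03 and 5.54 CPM in treated cells, against 2.44, 1.13 and 2.85 CPM in vehicle cells (1.23 ± 0.64, adjusted p = 0.152). TRIB3 had 12.4, 9.61 and 9.99 CPM in treated cells, against 12.8, 10.1 and 14.4 CPM in vehicle cells (-0.22 ± 0.40, adjusted p = 0.722). CHAC1 was thus higher in each treated library and TRIB3 overlapped, with neither passing.

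ADM2 had 1.4, 1.11 and 0.734 CPM in these treated libraries, against 3.47, 1.89 and 3.07 CPM in vehicle libraries (-1.37 ± 0.58, adjusted p = 0.0753, and 0.0315 with the block). PCK2 had 4.47, 3.4 and 2.45 CPM in treated cells, against 5.54, 4.39 and 4.04 CPM in vehicle cells, and ALDH1L2 had 1.36, 0.739 and 1.55 CPM in treated cells, against 1.74, 1.98 and 1.65 CPM in vehicle cells. Neither enzyme passed (adjusted p = 0.561 and 0.309), and GDF15 had at most 2 counts in a library. SLC7A11 had 11.4, 10.1 and 26.7 CPM in treated cells, against 14.4, 19.2 and 25.7 CPM in vehicle cells, overlapping (adjusted p = 0.514). CARS1 had 31.5, 27 and 34.4 CPM in treated cells, against 35.0, 38.2 and 43.2 CPM in vehicle cells (adjusted p = 0.323). AARS1 had 141, 141 and 117 CPM in treated cells, against 106, 113 and 120 CPM in vehicle cells (adjusted p = 0.253).

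The CHLA10 drug effect was more positive at 20 than at 3 days for 3 members (6.32% of all genes tested were called, 3.35% more positive and 2.97% more negative), namely SLC7A1 (difference 1.43 ± 0.27, adjusted p = 0.00283), SLC1A4 (1.0 ± 0.26, adjusted p = 0.0204) and PHGDH (0.76 ± 0.22, adjusted p = 0.0337). The count was 6 with the replicate block, 1 without 3-day treated replicate 1, 5 without 20-day treated replicate 2 and 10 without 20-day vehicle replicate 3. For SLC7A1 the treated cells had 31.2 ± 3.67 CPM at 20 days and 22.4 ± 3.33 CPM at 3 days, while the vehicle cells had 30.2 ± 8.72 CPM at 20 days and 58.1 ± 1.52 CPM at 3 days. In vehicle cells 13 members were lower at 20 than at 3 days (7.06% of all genes tested were lower and 8.05% higher), all 6 transporters among them, and groups did not overlap for 29 lower members (19.3%). Without 20-day vehicle replicate 1 or replicate 2 that count was 7. Between treated cells PYCR1 was higher (0.55 ± 0.16, adjusted p = 0.0395; 3.89% of all genes tested) and SLC7A5 lower (-0.96 ± 0.28, adjusted p = 0.0474; 1.15%) at 20 than at 3 days. By edgeR no member was called there without 3-day treated replicate 3, or without 20-day treated replicate 1 or replicate 2, with 3 to 4 members at an unadjusted p under 0.05 and 2 called by DESeq2 on all libraries, and 1 was called without 3-day treated replicate 1.

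In TC32 after 3 days 14 members were lower and 1 higher in BMS-986158 than in vehicle (22.8 and 22.3% of all genes tested), with a median of -0.37. Groups did not overlap for 29 lower members (28% of all genes tested) and 4 higher ones (27%). The higher ones were ATF3, VLDLR, ASNS and EPRS1, of which only EPRS1 passed the test. ASNS had 90.3, 74.4 and 75.9 CPM in treated libraries, against 67.1, 65.3 and 63.9 CPM in vehicle libraries. VLDLR had 11.2, 8.3 and 7.89 CPM in treated libraries, against 4.35, 4.05 and 3.86 CPM in vehicle libraries. ATF4 had 547, 436 and 447 CPM in treated libraries, against 581, 548 and 593 CPM in vehicle libraries. ATF5 had 82.1, 66.3 and 62.7 CPM in treated cells, against 116, 123 and 120 CPM in vehicle cells. Both had all treated libraries lowest, but ATF4 did not pass (-0.27 ± 0.18, adjusted p = 0.229) and ATF5 did (-0.77 ± 0.30, adjusted p = 0.0432), a call lost without any 1 library other than treated replicate 1 (adjusted p = 0.0762 to 0.127). DDIT3 and CEBPB fell by 0.90 and 1.06 on the log2 scale, DDIT3 with an adjusted p of 0.0501 without vehicle replicate 1. NUPR1 had 1, 0 and 0 counts in treated libraries and 14, 25 and 14 counts in vehicle libraries (adjusted p = 0.004).

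TRIB3 had 16.8, 17.4 and 15.9 CPM in treated TC32 libraries, against 34.0, 33.5 and 37.0 CPM in vehicle libraries (-1.06 ± 0.38, adjusted p = 0.0286, and 0.0552 to 0.0766 without any 1 library other than vehicle replicate 2). CHAC1 had 5.39, 4.47 and 4.85 CPM in treated cells, against 5.19, 7.99 and 6.39 CPM in vehicle cells (-0.41 ± 0.61, adjusted p = 0.612). TRIB3 was about equal among the libraries of each group, and CHAC1 overlapped between groups. ADM2 had 1.28, 1.47 and 1.33 CPM in treated cells, against 5.64, 6.36 and 6.13 CPM in vehicle cells (-2.14 ± 0.57, adjusted p = 0.00355). GDF15 had 6, 0 and 0 counts in treated libraries and 15, 7 and 17 counts in vehicle libraries (adjusted p = 0.0696).

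PCK2 had 7.71, 9.77 and 8.58 CPM in treated TC32 libraries, against 22.9, 22.5 and 24.7 CPM in vehicle libraries (-1.43 ± 0.46, adjusted p = 0.0156, and 0.0501 without treated replicate 1). ALDH1L2, higher in TC32 than in the treated cells of the other lines, had 10.7, 14.7 and 15.5 CPM in treated cells, against 24.2, 24.5 and 20.4 CPM in vehicle cells (-0.76 ± 0.33, adjusted p = 0.0623). Both had groups apart, and PHGDH (-0.98) and PYCR1 (-0.57) also fell. SLC7A11 had 4.5, 4.91 and 5.28 CPM in treated cells, against 15.1, 14.5 and 13.2 CPM in vehicle cells (-1.55 ± 0.36, adjusted p = 0.00113). SLC7A5 averaged 479 ± 20.3 CPM in treated cells and 637 ± 43.9 CPM in vehicle cells (-0.41 ± 0.28, adjusted p = 0.239). Treated libraries were below vehicle libraries for both transporters, and SLC3A2 (-0.81) and SLC1A5 (-0.51) fell as well, SLC1A5 without passing when any 1 library other than treated replicate 1 was left out. Few counts were assigned to CBS in TC32, at 0.47 ± 0.104 CPM in treated and 0.621 ± 0.194 CPM in vehicle cells. The copy CBSL had a mean of 8.13 CPM in treated and 17.7 CPM in vehicle cells. Because the copies are near-identical, the low CBS counts do not show that CBS was absent.

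Of the synthetases in TC32, EPRS1, for glutamate and proline, rose (407 ± 36.4 CPM in treated and 300 ± 11 CPM in vehicle cells, 0.44 ± 0.12, adjusted p = 0.00356), and IARS1 and YARS1 fell by 0.25 and 0.46, YARS1 only with treated replicate 2, treated replicate 3 and every vehicle library kept. CARS1 had 45.4, 39.5 and 40.8 CPM in treated libraries, against 48.6, 55.7 and 50.5 CPM in vehicle libraries (-0.30 ± 0.24, adjusted p = 0.324). AARS1 had 258, 237 and 241 CPM in treated cells, against 313, 310 and 322 CPM in vehicle cells (-0.36 ± 0.15, adjusted p = 0.0523). Both were apart without passing. With TC32 libraries alone fitted 27 members were lower and 3 higher (47.5% of all genes tested were called), and with CHLA10 libraries alone 12 were higher and 6 lower at 20 days (36.6%).

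**Figure D5:**
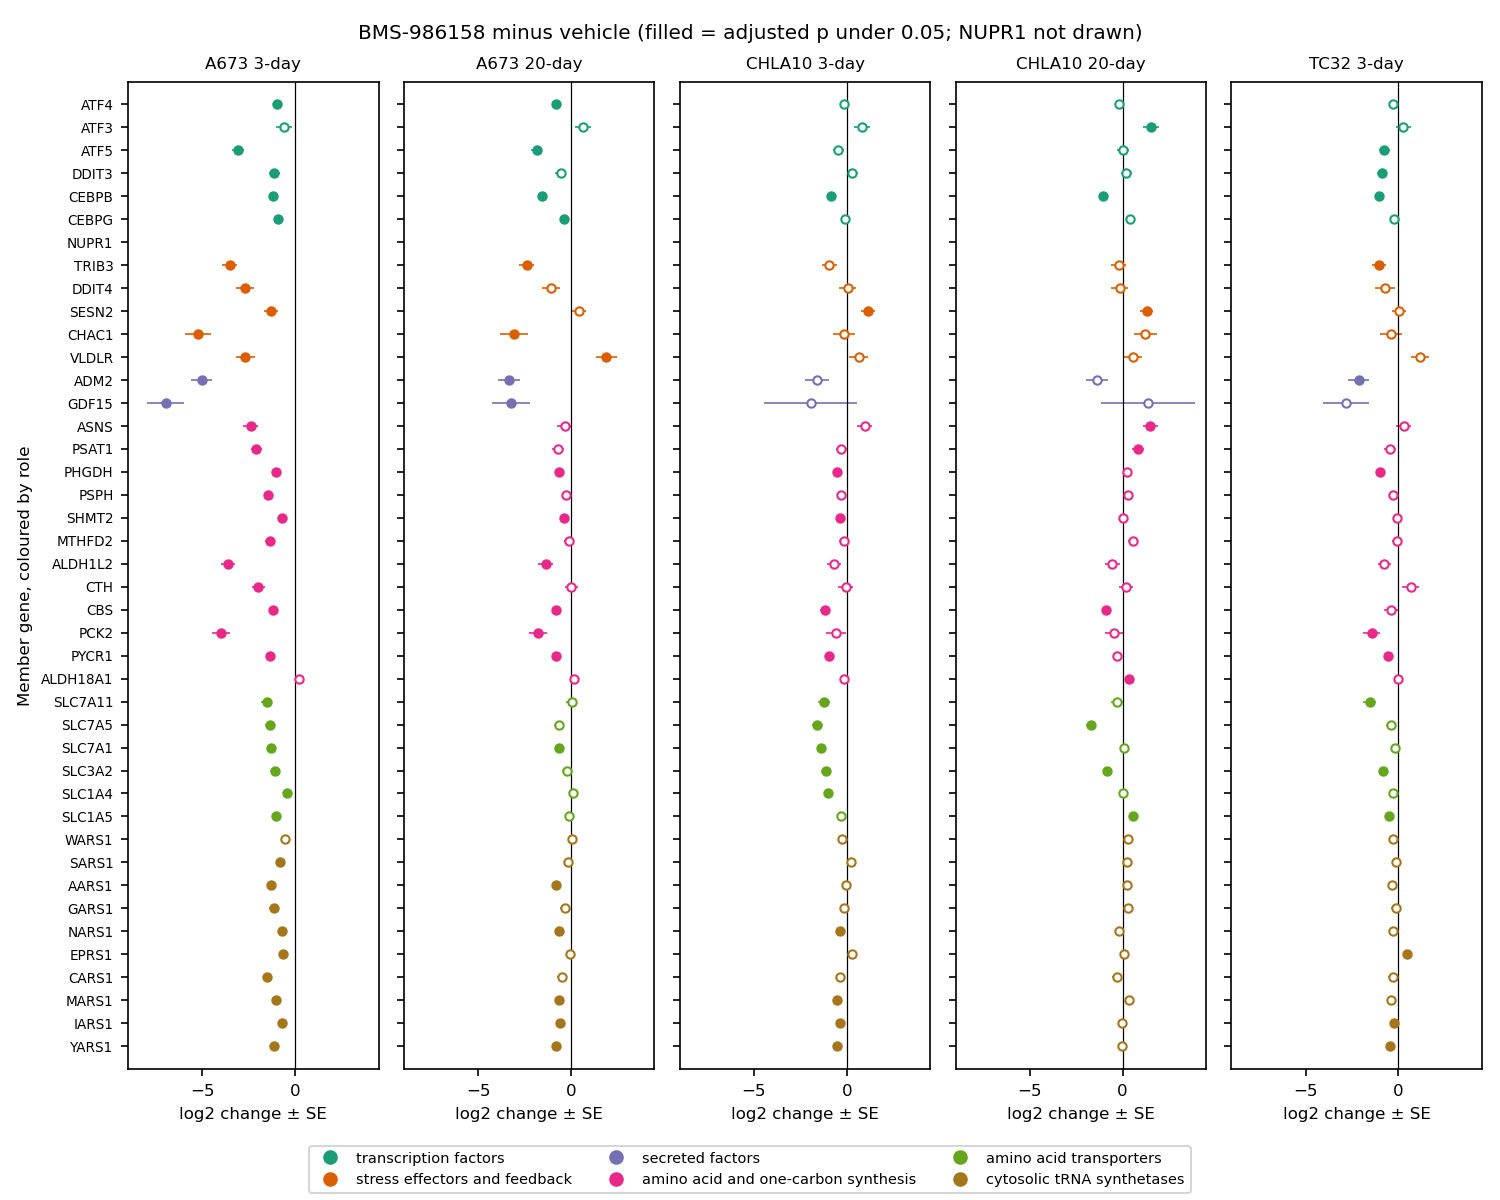
Log2 change of each member, BMS-986158 minus vehicle, with SE as bars, in 5 comparisons. Filled points have an adjusted p under 0.05, and NUPR1 is not drawn because its treated libraries were at or near 0 counts. The filled points lie to the left for 38 of the 41 members drawn in A673 at 3 days, and on both sides in CHLA10 at 20 days.

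The members that fell in all 3 lines at 3 days were CEBPB, NUPR1, PHGDH, PYCR1, SLC7A11, SLC3A2, IARS1 and YARS1, 8 of 42, against 855 of all 16713 genes (5.12%). CBS was not among them, but its copy CBSL changed by -1.03, -0.96 and -1.12 in A673, CHLA10 and TC32. CBSL was lower in each line, and the split of reads between the 2 copies is uncertain. Against A673 vehicle replicate 3 alone, CEBPB, PYCR1, SLC7A11 and IARS1 changed by -0.76, -0.65, -1.20 and -0.57. PHGDH, SLC3A2 and YARS1 changed there by only -0.35, -0.19 and -0.29, and NUPR1 had no counts to compare. The CHLA10 calls of NUPR1 and YARS1 and the TC32 call of YARS1 were lost without some single libraries, as given above. CEBPB had 141 ± 8.69 CPM in treated and 321 ± 72 CPM in vehicle A673 cells, 49.3 ± 3.46 and 89.9 ± 6.54 CPM in treated and vehicle CHLA10 cells, and 41.6 ± 5.17 and 86.6 ± 9.99 CPM in treated and vehicle TC32 cells. SLC7A11 was at -1.54, -1.21 and -1.55 in A673, CHLA10 and TC32.

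The drug effects of the lines were then compared directly. At 3 days the effect was more negative in A673 than in CHLA10 for 22 members (5.65% of all genes tested), CHAC1 (-5.07 ± 0.89, adjusted p = 0.000899) and ADM2 (-3.41 ± 0.84, adjusted p = 0.0103) among them, and than in TC32 for 24 (12.4%), CHAC1 (-4.81 ± 0.90, adjusted p = 0.000576) and VLDLR (-3.85 ± 0.73, adjusted p = 0.000576) among them. With A673 vehicle replicate 3 as the only vehicle library the counts were 5 (3 more negative) and 6 (3 more negative), and without vehicle replicate 1 the first count was 14. The TC32 effect was more positive than that in CHLA10 for SLC7A1 (1.21 ± 0.26, adjusted p = 0.00324) and SLC7A5 (1.17 ± 0.39, adjusted p = 0.049; 7.34% of all genes tested) and more negative for DDIT3 (-1.20 ± 0.40, adjusted p = 0.0413; 6.47%), and only 1 of these passed without CHLA10 vehicle replicate 2 or replicate 3, TC32 treated replicate 2 or replicate 3, or TC32 vehicle replicate 1 or replicate 3. At 20 days, where the 3-day vehicle libraries enter no mean, the effect was more negative in A673 than in CHLA10 for 12 members (10.5% of all genes tested). These were ATF5 (-1.87), CEBPG (-0.75), TRIB3 (-2.17), CHAC1 (-4.30), ASNS (-1.83), PSAT1 (-1.53), PHGDH (-0.90), SLC7A1 (-0.72), and the synthetases AARS1, MARS1, IARS1 and YARS1 (-1.03 to -0.53).

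Other genes around the programme were read from lists chosen by function. Of all genes tested, 15.3% were higher and 18.4% lower in A673 at 3 days, 19.7 and 19.9% in A673 at 20 days, 14 and 15.7% in CHLA10 at 3 days, 16.5 and 17.2% in CHLA10 at 20 days, and 22.3 and 22.8% in TC32, and the counts of the lists stand beside these shares. Of 20 tested ATF4 targets that are not members, 16 fell in A673 at 3 days, 9 fell and 4 rose in A673 at 20 days, 10 fell and 3 rose in CHLA10 at 3 days, 7 fell and 3 rose in CHLA10 at 20 days, and 10 fell and 3 rose in TC32. STC2, stanniocalcin, a secreted glycoprotein, fell in all 5 comparisons. It averaged 1.17 ± 0.473 CPM in treated and 42.1 ± 4.41 CPM in vehicle A673 cells at 20 days (-5.15 ± 0.36, adjusted p = 7.36e-11), and 6.58 ± 2.22 CPM in treated and 105 ± 15.1 CPM in vehicle CHLA10 cells at 20 days (-3.99 ± 0.29, adjusted p = 3.32e-10). The glycine transporter SLC6A9 changed by -2.41 and BCAT1, a branched-chain aminotransferase, by -2.12 in CHLA10 at 3 days. Of 13 genes for the eIF2 kinases, eIF2B and the eIF2 phosphatase subunits, 2 rose in A673 at each time, 1 fell in CHLA10 at each time, and 3 rose and 2 fell in TC32. EIF2AK4, the kinase GCN2 that senses uncharged tRNA, was at -0.33 ± 0.11 in CHLA10 at 20 days (adjusted p = 0.0215) and at 0.37 ± 0.11 in TC32 (adjusted p = 0.00848).

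Of 10 cytosolic synthetases that are not members, 3 fell and 1 rose in A673 at 3 days, 4 fell at 20 days, 4 fell in CHLA10 at 3 days, 2 fell and 1 rose at 20 days, and 3 fell in TC32. Of 17 mitochondrial synthetases, 4 fell and 2 rose in A673 at 3 days and 6 fell at 20 days, with medians of -0.07 and -0.18. In CHLA10 3 of them fell at 3 days and 2 fell and 1 rose at 20 days, and in TC32 3 fell and 5 rose. The endoplasmic reticulum chaperone genes induced by ATF6 and XBP1, another arm of the unfolded protein response, had 4 of 14 higher and 3 lower in A673 at 3 days, and 8 of 14 higher at 20 days, HYOU1 at 1.07 ± 0.18 (adjusted p = 2.97e-05) among them. In CHLA10 2 fell and 1 rose at 3 days and 5 rose at 20 days, while in TC32 8 fell and 3 rose. Of 8 NRF2 targets, 3 fell and 1 rose in A673 at 3 days, and 4 fell and 1 rose in CHLA10 at 3 days, with the haem oxygenase gene HMOX1 at -2.92 and -2.48. At 20 days 1 fell and 2 rose in each of A673 and CHLA10, and in TC32 1 fell and 3 rose. Of 10 p53 targets, 3 rose and 2 fell in A673 at 3 days and 5 rose and 2 fell at 20 days, 3 rose and 1 fell in CHLA10 at 3 days, 3 rose in CHLA10 at 20 days, and 2 rose and 3 fell in TC32.

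The members varied together within groups, and more so with the 3-day A673 vehicle libraries than without them. After each gene was centred on its group means, the median correlation of a member with the mean of the other 41 was 0.84 over 30 libraries and 0.46 over the 27 libraries without that group, the libraries sharing depth and scaling. PSAT1 was at 0.96 and 0.64, ATF4 at 0.94 and 0.62, YARS1 at 0.95 and 0.71, and CARS1 at 0.94 and 0.72, while ALDH18A1 was at -0.25 and 0.22. The 5 other genes most like the members' mean by Pearson correlation over 30 libraries were TSC22D3 (0.946), ARHGEF2 (0.943), TUBE1 (0.922), ULBP1 (0.905) and PCBP3 (0.900). Over the 27 libraries their correlations were 0.310, 0.064, 0.048, 0.398 and 0.607.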

How the data were processed

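RNA of 30 libraries was sequenced as poly(A) RNA in paired reads of 150 bases, per the labels' protocols. The authors deposited raw counts per gene; FastQC, Trim Galore, STAR and DESeq2 and the build GRCh38 (hg38) are named in the submitters' processing notes, and the counting step, its strand setting and tool versions are not stated in the notes or labels. Of 33538 Ensembl identifiers 33113 were paired with a symbol. The deposited counts were fitted with edgeR 4.0.16 (R 4.3.3): genes kept by filterByExpr, trimmed-mean scaling, robust quasi-likelihood fit of all 30 libraries with 1 mean per group, and Benjamini-Hochberg adjustment over 16713 genes, with 0.05 as threshold. Exon lengths and coordinates are from GENCODE 29. Promoter sequences are from RefSeq, GRCh38.p14. The members and gene lists were chosen with earlier results of these data known. Values in every library were given for ATF4 and for the 2 members of each role with the largest called change in A673 at 3 days (SLC7A5 in TC32 as a mean), with other members given by changes, and a few more (ASNS, SESN2, VLDLR, PSAT1, ATF3) chosen after their values were seen; of other lists the genes with the largest called changes could be named. No 2 libraries of a group were duplicates (lowest chi-square per gene 2.194). The main fit had no pairing for any group. Same-numbered libraries of the CHLA10 20-day groups had correlated deviations (0.199, 0.15 and 0.361), so some results with the replicate block are given beside the unpaired ones for these groups. Alternatives were another scaling, no filter, DESeq2 1.42.0, a replicate block, fits of the lines compared only, and fits without single libraries or without the 4 most distant. The fit was tested on data simulated for A673 at 3 days. It recovered 57 of 100 genes changed by 1 log2 unit and 85 of 100 changed by 2 units, with 5 false calls. Floors cover counting error only.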

Additional observations from a re-analysis of the deposited data

Results flagged for a closer look

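Several drug effects differed between times or lines by a test of the difference itself (edgeR, adjusted over all genes tested). Between 20 and 3 days in A673 12 members differed, with VLDLR at 4.61 and ALDH1L2 at 2.26 log2 units, and in CHLA10 3 members differed, with SLC7A1 at 1.43 and SLC1A4 at 1.0. Between A673 and CHLA10 at 3 days 22 members differed, with CHAC1 at -5.07 and ADM2 at -3.41, and between A673 and TC32 24 differed, with CHAC1 at -4.81 and VLDLR at -3.85. These differences use the 3-day A673 vehicle libraries, whose part was measured by the fits with 1 such library. Between TC32 and CHLA10 3 members differed, with SLC7A1 at 1.21 and DDIT3 at -1.20. Between A673 and CHLA10 at 20 days 12 members differed, with CHAC1 at -4.30 and TRIB3 at -2.17.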

How the results depend on the processing

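Of 2856 recomputed member changes in the 5 comparisons of BMS-986158 with vehicle, 2603 stayed as in the main fit, either called in both or called in neither. A call was lost in 121 and gained in 124, and 8 no longer had their negative sign. All 8 were in A673 at 3 days with vehicle library 3 alone: SESN2 (0.81, called higher), VLDLR (0.78), SLC1A4 (0.16), ASNS (0.13), GARS1 (0.13), SARS1 (0.05), DDIT3 (0.03) and NUPR1 (0.0, without counts in any library kept). Counts of members called moved by over 1.5 times as follows, and the cause was not tested. With 3-day A673 vehicle library 3 alone the counts were 16 for A673 at 3 days, 2 for its effect at 20 minus 3 days, 5 against CHLA10, 6 against TC32 and 0 for A673 vehicle at 20 minus 3 days (6 of 42 at an unadjusted edgeR p under 0.05, and 29 called by DESeq2 on all libraries); the A673 effect at 20 minus 3 days had 33 with library 1 and 20 with library 2. With the lines compared only, counts were 18 for CHLA10 at 20 days (36.6% of all genes tested were called) and 30 for TC32 (47.5%). They were 2 for the A673 and 12 for the CHLA10 effect at 20 minus 3 days, and 8 for TC32 against CHLA10. For vehicle at 20 minus 3 days they were 23 in CHLA10 and 0 in A673 (30 at an unadjusted edgeR p under 0.05, and 29 by DESeq2 on all libraries). Without the 4 most distant libraries the counts were 29 for CHLA10 at 3 days (41.5% of all genes tested were called), 21 at 20 days (37.2%) and 29 for TC32 (54.7%). In the main fit 29.8, 33.7 and 45.1% of all genes tested were called in these comparisons, so calls rose over all genes too. Counts were 38 and 19 for the A673 and CHLA10 effects at 20 minus 3 days. They were 34 for A673 against CHLA10 at 3 days, 27 at 20 days and 10 for TC32 against CHLA10. At 20 minus 3 days they were 38 and 29 for A673 and CHLA10 vehicle, and 12 and 11 for A673 and CHLA10 treated cells. For differences between effects or times, shares over all genes in these alternative fits are not given. For the A673 effect at 20 minus 3 days no filter gave 5 and the replicate block 6; for CHLA10 library size alone gave 5, the replicate block 6 and DESeq2 9; no filter gave 1 for CHLA10 treated cells. Leaving out 1 library gave 37 to 41 for A673 at 3 days, 19 to 21 at 20 days, 11 to 14 for CHLA10 at 3 days, 6 to 13 at 20 days, 10 to 14 for TC32, 2 to 33 and 1 to 10 for the A673 and CHLA10 effects at 20 minus 3 days, 14 to 31 for A673 against CHLA10 and 18 to 31 against TC32 at 3 days, 1 to 3 for TC32 against CHLA10, 10 to 13 for A673 against CHLA10 at 20 days, 2 to 36 and 7 to 15 for A673 and CHLA10 vehicle, and 1 to 4 and 0 to 2 for A673 and CHLA10 treated cells. The labels do not say whether same-numbered libraries of any groups share more than a number. With the block the counts were 37 for A673 at 3 days and 15 for TC32. Counts of NUPR1 and GDF15 were at or near 0 in many libraries, which limits their values.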
